A study of Homo sapiens with 8 samples.

Results

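The translation initiation factor genes were the protein-coding genes of the deposited count table whose symbols begin with EIF1 to EIF6, leaving out the eIF2 kinases named EIF2AK. The rule found 52 genes among 58735 in the table, of which 19951 are protein-coding, and it used no measured value. All libraries were from PANC-1 cells, a human line that grew out of a carcinoma of the pancreatic duct, collected 48 h after siRNA was introduced. A control siRNA, labelled SCR, was used for 4 libraries whose genotype is labelled WT (siSCR), and a siRNA against BARD1 for the other 4 (siBARD1). Both groups hold replicates numbered 1, 3, 4 and 5. No other treatment is labelled. BARD1 is the ubiquitin ligase partner of BRCA1, and the design asked which transcripts differ when it is silenced.

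Initiation brings a ribosome to the start codon of a messenger RNA. The small ribosomal subunit, carrying eIF3 and the scanning factors eIF1 and eIF1A, receives the initiator tRNA from eIF2 bound to GTP, while the cap-binding complex of eIF4E, eIF4G and the helicase eIF4A loads it onto the message. After start codon recognition eIF2 is released with GDP and has to be recharged by the exchange factor eIF2B, which is blocked when eIF2 is phosphorylated. The 4E-BP proteins compete with eIF4G for eIF4E and are themselves switched off by the kinase mTORC1, so both eIF2B and eIF4E are points at which a cell sets its rate of protein synthesis.

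The libraries held 17816547 to 28590710 counts assigned to genes. BARD1 itself stood at 17.3, 22.2, 17.8 and 20.8 CPM (reads relative to the TMM-scaled size of each library) in siSCR replicates 1, 3, 4 and 5. In the same-numbered siBARD1 libraries it stood at 3.27, 2.91, 3.34 and 2.47 CPM, a log2 fold change of -2.69 (SE 0.12, edgeR quasi-likelihood adjusted p = 7.41e-11). For cell type markers, CPM was taken relative to unscaled library totals. All 7 ductal or epithelial markers examined were above 1 CPM in every library, with a summed level of 5037 to 6990 CPM in siSCR and 3110 to 4480 CPM in siBARD1. Acinar, islet, endothelial and leukocyte markers summed to at most 1.70 CPM in any library. The 5 fibroblast or stellate markers summed to 81.6 to 126 CPM in siSCR and 79.2 to 89.0 CPM in siBARD1. Nearly all of that sum was COL1A1, at 78.2 to 124 CPM over the 8 libraries. The other markers reached at most 1.56 CPM, and 2 of them had no count. The part that the difference in the epithelial markers plays in the results below was not tested. Replicate 1 of siSCR stood apart on the second principal component, which held 15.5% of the variance, and it was the lowest siSCR library for 23 of the 49 initiation factor genes tested and the highest for 8. In bulk RNA a lower level in every cell and a loss in some of the cells cannot be told apart, and CPM values do not show changes in total RNA. Whether replicates came from separate cultures is not labelled, and p-values therefore reflect variation among these libraries, which may be technical.

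Of the 52 genes, 49 passed the filter on low counts, and 20 of them fell, 5 rose and 24 did not pass an edgeR quasi-likelihood adjusted p of 0.05. Among all 15287 genes tested, 38.9% passed, 20.0% as lower and 18.9% as higher, compared with 51%, 40.8% and 10.2% of the initiation factor genes. Restricted to protein-coding genes tested, 43.5% passed, 22.4% as lower and 21.1% as higher. The median log2 fold change of the 49 genes was -0.13, and that of all genes tested was 0.00. It was -0.08 when libraries were scaled by total count only. The changes were small. None of the 25 genes that passed changed 2-fold, and their median size was 0.26 on the log2 scale, compared with 0.36 among all genes that passed. The siSCR and siBARD1 libraries did not overlap in CPM for 28 of the 49 genes, and for 36.1% of all genes tested. Of the 25 that passed, 24 had no overlap, and the exception was EIF2B4. Of the 3 genes not tested, EIF4E1B, a cap-binding protein, had 1 read in all 8 libraries together, and EIF4E3, another one, had 0 to 6 reads per library. The third, EIF1AY, is not described further.

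**Figure D1:**
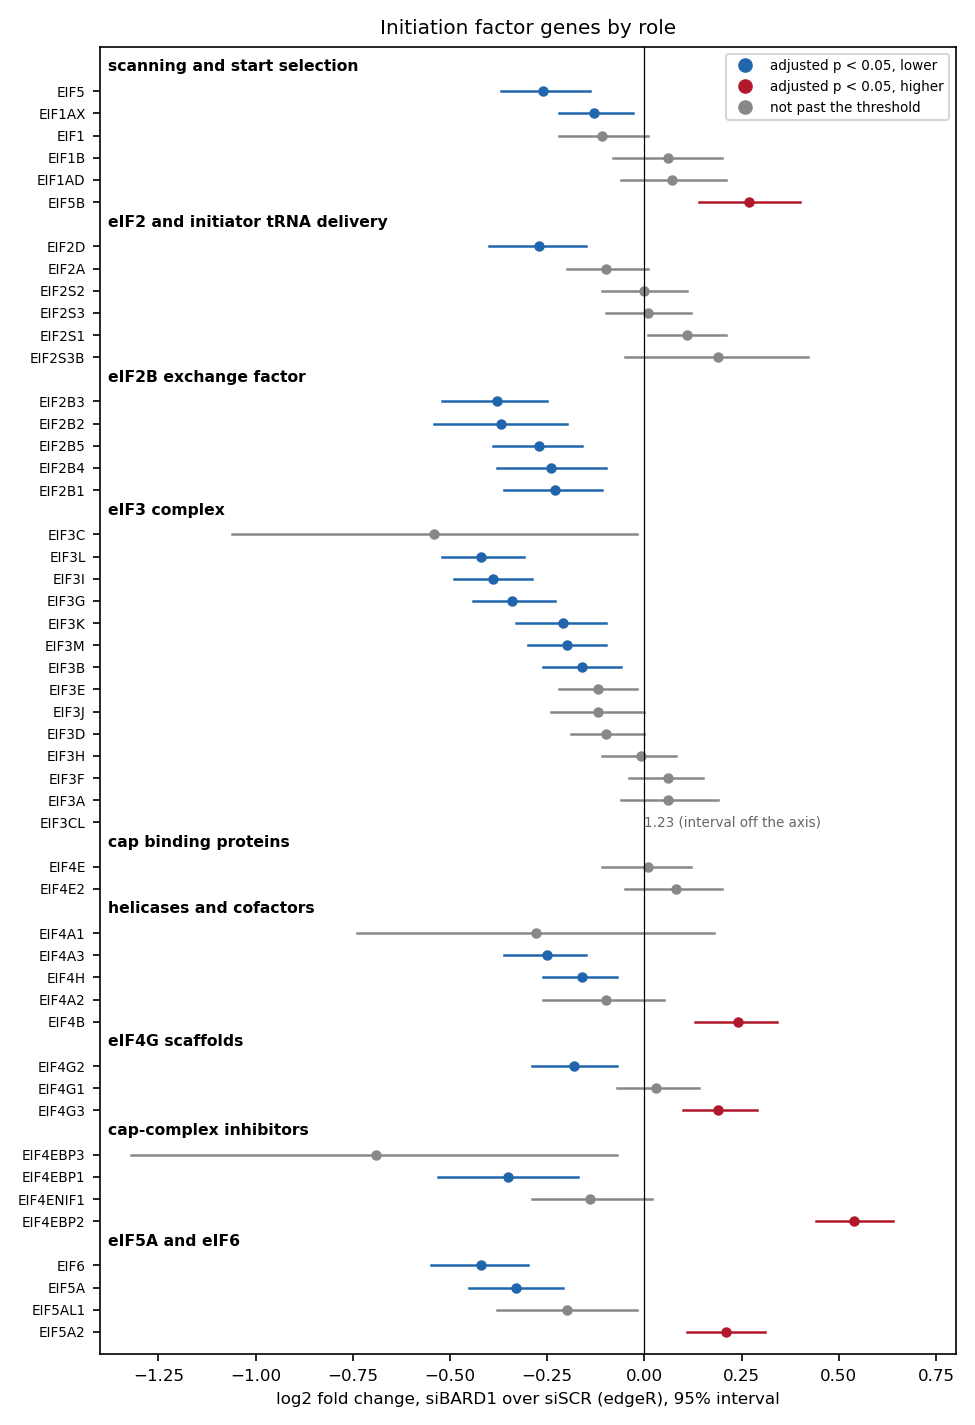
Log2 fold change of siBARD1 over siSCR (x axis) for the 49 initiation factor genes tested (y axis, by role), with bars for the 95% interval of the edgeR fit; EIF3CL, at 1.23, is off the axis. All 5 eIF2B genes lie left of 0 and EIF4EBP2 lies farthest right among the genes past the threshold, at 0.54.

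The exchange factor eIF2B fell in all 5 of its subunit genes, where 20.0% of all genes tested fell. Of the 3 genes of its substrate eIF2 none passed the test, where 38.9% of all genes tested passed. The catalytic subunit of eIF2B is encoded by EIF2B5 and its partner by EIF2B3. The regulatory subunits that sense phosphorylated eIF2 are encoded by EIF2B1, EIF2B2 and EIF2B4. EIF2B3 stood at 46.4, 44.0, 42.3 and 42.1 CPM in siSCR replicates 1, 3, 4 and 5 and at 30.7, 33.9, 34.0 and 35.5 CPM in siBARD1. All siBARD1 libraries lay below all siSCR libraries, with a log2 fold change of -0.38 (SE 0.06, edgeR adjusted p = 0.000145). EIF2B2 stood at 29.3, 34.3, 29.4 and 29.9 CPM in siSCR and at 21.3, 25.7, 22.5 and 25.6 CPM in siBARD1. Its groups did not overlap either, and it fell by 0.37 on the log2 scale (SE 0.08, edgeR adjusted p = 0.00147). About 23.6% of the exonic bases of EIF2B2 lie opposite antisense genes, and whether the counting used strand is not given in the sources used here.

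The catalytic subunit gene EIF2B5 stood at 83.8, 92.3, 93.0 and 97.6 CPM in siSCR and at 77.9, 79.5, 72.4 and 73.5 CPM in siBARD1, without overlap. Its log2 fold change was -0.27 (SE 0.06, edgeR adjusted p = 0.000937). EIF2B1 went from 67.5 ± 3.92 to 57.4 ± 2.88 CPM (SD, n = 4 each), with an edgeR adjusted p of 0.00418, and 15.6% of its exonic bases lie opposite other genes. EIF2B4 stood at 43.5, 49.0, 52.7 and 50.8 CPM in siSCR and at 44.2, 40.8, 40.1 and 40.3 CPM in siBARD1, so that replicate 1 of each group overlapped (log2 fold change -0.24, edgeR adjusted p = 0.00744). Across the 5 genes the log2 fold change ran from -0.38 to -0.23.

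The promoters of the 5 eIF2B genes are shown because these genes moved together. The windows, from the RefSeq promoter table on GRCh38.p14, run 5′ to 3′ from 250 bases before to 50 bases after the annotated start. Capitals mark CCGGAAG, a core of ETS-family sites, searched on both strands (its other strand reads CTTCCGG). EIF2B4 has 2 annotated starts.
EIF2B1, chr12:123633637-123633936, minus strand: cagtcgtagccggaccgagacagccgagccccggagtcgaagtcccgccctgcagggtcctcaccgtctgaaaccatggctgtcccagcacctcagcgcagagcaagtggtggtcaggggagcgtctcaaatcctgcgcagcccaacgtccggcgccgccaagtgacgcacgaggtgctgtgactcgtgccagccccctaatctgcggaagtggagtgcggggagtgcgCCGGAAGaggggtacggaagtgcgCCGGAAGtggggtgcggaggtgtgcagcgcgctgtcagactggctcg
EIF2B2, chr14:75002671-75002970, plus strand: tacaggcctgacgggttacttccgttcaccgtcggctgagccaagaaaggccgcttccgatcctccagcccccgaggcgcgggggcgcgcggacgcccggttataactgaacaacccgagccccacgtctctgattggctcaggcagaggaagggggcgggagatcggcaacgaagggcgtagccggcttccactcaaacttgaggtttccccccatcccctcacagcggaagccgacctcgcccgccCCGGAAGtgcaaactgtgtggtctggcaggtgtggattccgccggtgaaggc
EIF2B3, chr1:44986546-44986845, minus strand: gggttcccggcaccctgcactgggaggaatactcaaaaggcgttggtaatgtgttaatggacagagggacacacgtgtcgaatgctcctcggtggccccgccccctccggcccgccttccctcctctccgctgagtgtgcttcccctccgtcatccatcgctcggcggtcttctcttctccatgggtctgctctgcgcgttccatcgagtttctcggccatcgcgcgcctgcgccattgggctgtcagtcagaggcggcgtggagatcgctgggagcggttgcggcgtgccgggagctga
EIF2B4, chr2:27369976-27370275, minus strand: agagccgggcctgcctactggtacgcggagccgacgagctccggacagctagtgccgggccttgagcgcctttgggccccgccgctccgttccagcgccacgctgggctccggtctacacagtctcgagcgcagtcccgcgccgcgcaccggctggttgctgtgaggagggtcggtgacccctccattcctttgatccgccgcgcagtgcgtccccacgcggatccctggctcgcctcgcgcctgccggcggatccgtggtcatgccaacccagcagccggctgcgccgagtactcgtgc
EIF2B4, chr2:27370289-27370588, minus strand: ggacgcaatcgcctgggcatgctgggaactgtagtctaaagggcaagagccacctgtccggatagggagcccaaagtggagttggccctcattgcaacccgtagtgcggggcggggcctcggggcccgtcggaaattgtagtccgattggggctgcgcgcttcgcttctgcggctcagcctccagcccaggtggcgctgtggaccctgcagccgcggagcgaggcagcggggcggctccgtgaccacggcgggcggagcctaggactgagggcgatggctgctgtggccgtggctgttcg
EIF2B5, chr3:184135108-184135407, plus strand: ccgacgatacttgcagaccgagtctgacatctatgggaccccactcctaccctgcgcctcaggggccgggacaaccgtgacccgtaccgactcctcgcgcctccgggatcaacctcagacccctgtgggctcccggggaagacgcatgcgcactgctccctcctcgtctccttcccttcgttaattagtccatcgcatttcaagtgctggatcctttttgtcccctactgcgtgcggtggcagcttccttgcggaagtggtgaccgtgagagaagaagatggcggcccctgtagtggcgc

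The sequence CCGGAAG was found in the windows of 2 of these 5 genes, EIF2B1, with 2 copies, and EIF2B2. Among 10087 protein-coding genes tested that have a window in the table, 22.4% carried it, and of all 35116 windows 10.3% did. Of the 52 initiation factor genes, 44 had a window, 3 of them untested. The sequence was present for 6 of 17 that fell, 2 of 5 that rose and 4 of 19 that did not pass. An E-box, CACGTG, was present for 4 of 17, 2 of 5 and 5 of 19, compared with 12.7% of protein-coding genes tested. TGATGCAA, an element bound by ATF4, was present in no window of the tested initiation factor genes. Among all protein-coding genes tested with a window 0.694% had it, too few for its absence here to be informative.

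None of the 3 genes of eIF2, which delivers the initiator tRNA, passed the test, where 38.9% of all genes tested passed. EIF2S2, the beta subunit, had a log2 fold change of -0.00 (95% interval -0.11 to 0.11) and EIF2S3, the gamma subunit, of 0.01 (-0.10 to 0.12). EIF2S1, the alpha subunit that carries the regulatory phosphorylation site, averaged 128 ± 6.32 CPM in the control libraries and 138 ± 2.43 CPM after BARD1 silencing (SD, n = 4 each), a log2 fold change of 0.11 (0.01 to 0.21). Its 4 siBARD1 libraries lay above the 4 siSCR libraries, but the edgeR adjusted p was 0.074. The intervals of all 3 genes exclude a fall of the size seen in EIF2B3. EIF2S3B, a copy of EIF2S3 with near-identical sequence, was at 8.42 ± 0.639 and 9.57 ± 1.08 CPM and is uncertain because reads can be split between the copies. EIF2D, which can bring tRNA to the ribosome independently of eIF2, fell from 53.0, 56.3, 53.5 and 54.1 CPM to 42.0, 43.8, 49.4 and 44.0 CPM (log2 fold change -0.27, SE 0.06, edgeR adjusted p = 0.0017). EIF2A, a separate tRNA-binding factor, had -0.10 (95% interval -0.20 to 0.01).

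Of the 14 genes of eIF3, the large scaffold that holds the small ribosomal subunit, 6 fell, none rose and 8 did not pass. The share that fell was 42.9%, where 20.0% of all genes tested fell. The share that passed in either direction was also 42.9%, near the 38.9% of all genes tested and the 43.5% of protein-coding genes tested. EIF3C and EIF3CL, described below, are counted among the 14. EIF3I stood at 320.3, 344, 330.1 and 313 CPM in siSCR and at 237, 245, 249.8 and 266 CPM in siBARD1. The groups were far apart, and the log2 fold change was -0.39 (SE 0.05, edgeR adjusted p = 9.45e-06). EIF3G had 108, 114, 108 and 107 CPM in siSCR and 83.6, 90.7, 83.3 and 87.6 CPM in siBARD1 (log2 fold change -0.34, SE 0.05, edgeR adjusted p = 3.87e-05). EIF3B went from 739 ± 31.0 to 662 ± 15.5 CPM (SD, n = 4 each; edgeR adjusted p = 0.0123), and with scaling by total count only its adjusted p was 0.0549. EIF3B, EIF3G and EIF3I form a module at the edge of the complex, near the entry channel for the message.

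The other eIF3 genes that fell encode subunits of the core. EIF3L stood at 128, 129, 127 and 117 CPM in siSCR and at 98.3, 95.1, 90.7 and 91.6 CPM in siBARD1, the largest fall among the initiation factor genes that passed together with EIF6 (log2 fold change -0.42, SE 0.05, edgeR adjusted p = 5.82e-06). The gene AL022311.1 covers 41.1% of its exonic bases on the same strand and held 18 to 47 reads per library. EIF3K, the partner of EIF3L, went from 999.8 ± 69.4 to 862 ± 24.1 CPM (edgeR adjusted p = 0.0043), and EIF3M from 184 ± 8.71 to 160.4 ± 3.26 CPM (SD, n = 4 each; edgeR adjusted p = 0.0026). EIF3A, the largest subunit and the backbone of the complex, had a log2 fold change of 0.06 (95% interval -0.06 to 0.19). EIF3F had 0.06 (-0.04 to 0.15) and EIF3H had -0.01 (-0.11 to 0.08). EIF3E narrowly missed the threshold at an edgeR adjusted p of 0.0552 (log2 fold change -0.12), and EIF3D and EIF3J had values of -0.10 and -0.12. Differences in fold change between subunits were not tested.

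EIF3C is annotated as a pair of near-identical copies on chromosome 16, EIF3C at 28688558 to 28735730 and EIF3CL at 28379579 to 28403879 (GRCh38), and neither gave a usable comparison. EIF3CL had 101, 126, 130 and 250 reads in siSCR and 91, 873, 754 and 96 reads in siBARD1. Replicates 3 and 4 of siBARD1 were thus several times above the other libraries, and the log2 fold change of 1.23 had a 95% interval from -0.72 to 3.19. EIF3C had 1034, 1074, 952 and 1630 reads in siSCR and 786, 1165, 1026 and 866 in siBARD1 (log2 fold change -0.54, edgeR adjusted p = 0.0931). EIF3CL took 8.90% to 13.3% of the reads of the pair in the siSCR libraries and 10.4%, 42.8%, 42.4% and 9.98% in siBARD1 replicates 1, 3, 4 and 5. The summed level of both was 47.4, 69.6, 50.6 and 92.3 CPM in siSCR and 42.8, 79.1, 61.2 and 43.2 CPM in siBARD1, with wide overlap.

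Of the scanning and start selection genes, EIF5 fell, EIF5B rose and EIF1AX was close to the threshold. EIF5, which triggers GTP hydrolysis by eIF2 at the start codon, stood at 332, 382, 385 and 364 CPM in siSCR and at 289, 309.5, 313 and 314 CPM in siBARD1. The groups did not overlap (log2 fold change -0.26, SE 0.05, edgeR adjusted p = 0.00108). EIF5B, the GTPase that joins the ribosomal subunits, stood at 237, 271, 262 and 219 CPM in siSCR and at 294, 315, 281 and 301 CPM in siBARD1. All siBARD1 libraries lay above all siSCR libraries (log2 fold change 0.27, SE 0.06, edgeR adjusted p = 0.00249). EIF1AX, which encodes eIF1A, stood at 171, 178, 172 and 170.1 CPM in siSCR and at 149.7, 158, 161 and 163 CPM in siBARD1 (log2 fold change -0.13, edgeR adjusted p = 0.0363). That call was lost in 8 alternatives, among them scaling by total count (adjusted p = 0.178) and the fits without siSCR replicate 3 (0.0785) or 4 (0.0663) or without siBARD1 replicate 1 (0.11), 3 (0.0822) or 4 (0.0612). EIF1, which guards start codon choice, had a log2 fold change of -0.11 (95% interval -0.22 to 0.01), its paralogue EIF1B had 0.06 (-0.08 to 0.20), and EIF1AD, which carries an eIF1A-like domain, had 0.07 (-0.06 to 0.21).

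**Figure D2:**
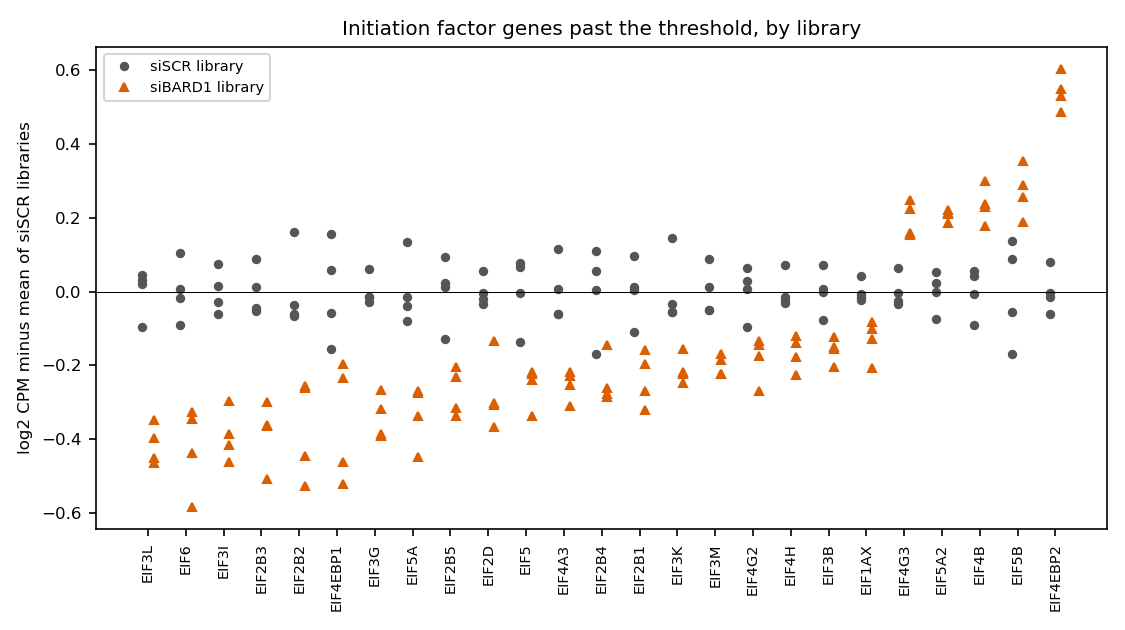
Log2 CPM of each library relative to the mean of the 4 siSCR libraries (y axis) for the 25 initiation factor genes that passed the threshold (x axis, ordered by log2 fold change). Circles are siSCR and triangles siBARD1 libraries, and the groups overlap only for EIF2B4.

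Cap recognition showed its largest change in the inhibitors of eIF4E, which moved in opposite directions. EIF4EBP2 (ENSG00000148730, chromosome 10, 70404379 to 70428618, plus strand, GRCh38) encodes 4E-BP2. It stood at 169.9, 154, 159 and 160.1 CPM in siSCR replicates 1, 3, 4 and 5 and at 244, 225, 235 and 232 CPM in siBARD1. Every siBARD1 library was well above every siSCR library, a 1.46-fold rise (log2 fold change 0.54, SE 0.05, edgeR adjusted p = 1.52e-07), the largest change of any initiation factor gene that passed. EIF4EBP1, encoding 4E-BP1, stood at 48.1, 45.0, 41.5 and 38.8 CPM in siSCR and at 30.1, 31.4, 37.7 and 36.7 CPM in siBARD1. Its groups came close without overlapping (log2 fold change -0.35, SE 0.08, edgeR adjusted p = 0.00339). EIF4EBP3, encoding the third 4E-BP, was at 0.998 ± 0.184 and 0.604 ± 0.184 CPM (SD, n = 4 each). It did not pass (edgeR adjusted p = 0.0744), and 73.4% of its exonic bases are shared with the readthrough gene ANKHD1-EIF4EBP3.

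On the per-length scale of the authors' FPKM, the 3 4E-BP genes together held 63.7 ± 4.28 FPKM in siSCR and 64.3 ± 3.68 FPKM in siBARD1 (SD, n = 4 each), while their make-up differed. EIF4EBP1 made up 64.5%, 65.0%, 62.0% and 60.6% of that sum in siSCR and 45.1%, 47.7%, 51.1% and 51.1% in siBARD1. EIF4EBP2 made up 33.7%, 33.0%, 35.0% and 37.0% in siSCR and 54.0%, 50.7%, 47.1% and 47.7% in siBARD1. EIF4EBP1 was thus the larger in all 4 siSCR libraries, and EIF4EBP2 was the larger in siBARD1 replicates 1 and 3 only. These shares are a description and were not tested. FPKM divides by the length of all annotated exons, so a gene with long exons that are rarely used appears lower than it is.

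The promoter window of EIF4EBP2 is shown as that of the gene with the largest change, from the same RefSeq table and with the same motif in capitals, here on the opposite strand. The window is placed by the RefSeq start. It ends at 70404194, upstream of the GENCODE start of 70404379 given above, so the annotations differ in where the gene starts.
EIF4EBP2, chr10:70403895-70404194, plus strand: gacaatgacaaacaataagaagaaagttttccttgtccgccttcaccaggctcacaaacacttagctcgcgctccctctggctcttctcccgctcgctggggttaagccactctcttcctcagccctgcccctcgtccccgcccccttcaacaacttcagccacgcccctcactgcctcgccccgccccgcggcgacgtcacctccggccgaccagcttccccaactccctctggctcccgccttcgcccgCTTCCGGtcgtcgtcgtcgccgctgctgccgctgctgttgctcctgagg

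The cap-binding proteins themselves did not pass. EIF4E, the main cap-binding protein, stood at 82.8 ± 4.29 and 83.3 ± 4.11 CPM (SD, n = 4 each), with a log2 fold change of 0.01 and a 95% interval of -0.11 to 0.12. EIF4E2, another cap-binding protein, had 0.08 (-0.05 to 0.20, edgeR adjusted p = 0.325), and 24.2% of its exonic bases lie opposite other genes. EIF4ENIF1, a partner that carries eIF4E to the nucleus and to sites of RNA storage, had -0.14 (-0.29 to 0.02).

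The eIF4G scaffolds moved in different directions. EIF4G2, a relative of eIF4G that lacks the eIF4E-binding region, stood at 2450, 2672, 2737 and 2634 CPM in siSCR and at 2176, 2387, 2370 and 2324 CPM in siBARD1. The groups did not overlap, and it fell by 0.18 on the log2 scale (SE 0.05, edgeR adjusted p = 0.0106). EIF4G3 stood at 202, 189, 189.9 and 193 CPM in siSCR and at 226, 229.6, 216 and 215 CPM in siBARD1, again without overlap (log2 fold change 0.19, SE 0.05, edgeR adjusted p = 0.00283). EIF4G1, the main scaffold, had 0.03 (95% interval -0.07 to 0.14). Of the summed FPKM of these 3 genes, EIF4G2 held 64.8% ± 0.556 in siSCR and 61.1% ± 0.859 in siBARD1 (SD, n = 4 each), and EIF4G3 held 4.33% ± 0.331 and 5.28% ± 0.243.

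Among the helicases and their cofactors, EIF4B, which stimulates eIF4A, rose from 438, 442, 423 and 399 CPM to 523, 498, 501 and 481 CPM (log2 fold change 0.24, SE 0.05, edgeR adjusted p = 0.000934). EIF4H, a related cofactor, went the other way, from 595 ± 20.3 to 531 ± 17.0 CPM (SD, n = 4 each; edgeR adjusted p = 0.0094). EIF4A3, a helicase of the same family that acts in the exon junction complex rather than in scanning, fell from 151 ± 9.04 to 127 ± 3.65 CPM (edgeR adjusted p = 0.000707). EIF4A2 had a log2 fold change of -0.10 (95% interval -0.26 to 0.05). EIF4A1 had only 89 to 195 reads per library and the lowest level per length of the 49 genes, at 1.25 ± 0.384 FPKM in siSCR. Of its exonic bases 48.6% are shared with other genes on the same strand, among them the readthrough gene SENP3-EIF4A1, which had at most 7 reads. EIF4A1 is known as an abundant helicase, and what its low count comes from was not tested.

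The eIF5A pair, elongation factors named for an early assay of initiation, also moved apart. EIF5A stood at 656, 762, 687 and 675 CPM in siSCR and at 509, 576, 549 and 573 CPM in siBARD1. The fall was 1.26-fold, without overlap (log2 fold change -0.33, SE 0.06, edgeR adjusted p = 0.000182). EIF5A2 stood at 80.0, 77.1, 78.5 and 73.3 CPM in siSCR and averaged 89.1 ± 0.956 CPM in siBARD1 (SD, n = 4), with every siBARD1 library above every siSCR library (log2 fold change 0.21, SE 0.05, edgeR adjusted p = 0.00241). EIF5A2 held 5.24% ± 0.386 of the summed FPKM of the eIF5A genes in siSCR and 7.42% ± 0.429 in siBARD1 (SD, n = 4 each). EIF5AL1, an EIF5A-like copy whose reads may belong to EIF5A, had -0.20 (edgeR adjusted p = 0.0738). EIF6, which keeps the large ribosomal subunit from joining too early, stood at 173, 198, 185 and 182 CPM in siSCR and at 123, 136, 147 and 145 CPM in siBARD1. All siBARD1 libraries lay below, a 1.34-fold fall (log2 fold change -0.42, SE 0.06, edgeR adjusted p = 2.99e-05). The gene AL121753.1 covers 17.4% of the exonic bases of EIF6 on the same strand.

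**Figure D3:**
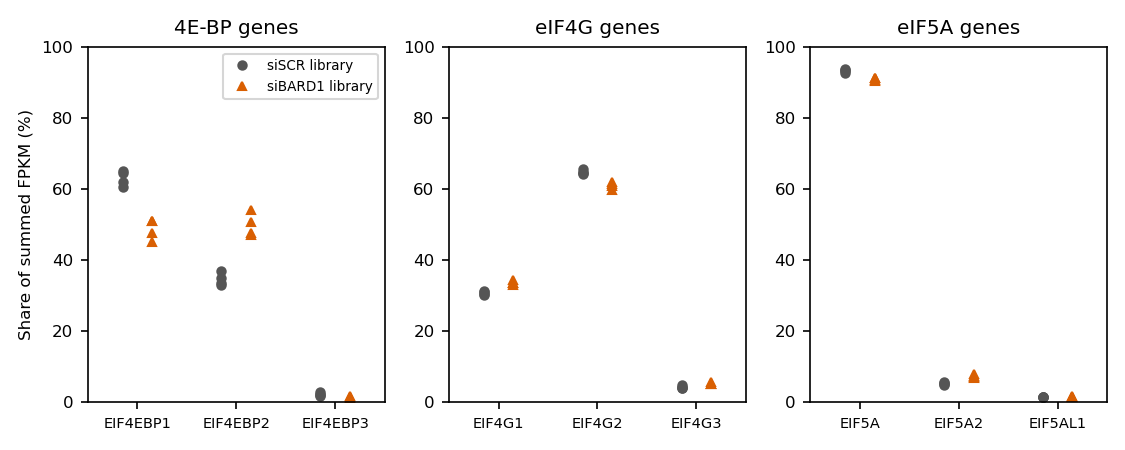
Share of each paralogue in the summed FPKM of its family (y axis, percent), 1 point per library, circles for siSCR and triangles for siBARD1. EIF4EBP2 moves from 33.0% to 37.0% in siSCR up to 47.1% to 54.0% in siBARD1, while the eIF4G and eIF5A families shift by a few percentage points.

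Levels per length spanned a wide range within the family. In siSCR the highest were EIF3K at 356 ± 25.4 FPKM, EIF4G2 at 302 ± 13.9, EIF5A at 246 ± 16.7, EIF3I at 189 ± 7.93 and EIF4H at 186 ± 6.68 FPKM (SD, n = 4 each). All 5 of these fell in siBARD1, where 40.8% of the initiation factor genes tested and 20.0% of all genes tested fell. The genes next in level did not pass. In siSCR and siBARD1 they averaged 143 and 146 FPKM (EIF4G1), 126 and 127 (EIF2S3), 116 and 116 (EIF2S2) and 114 and 119 FPKM (EIF3A). In siBARD1 EIF3K and EIF4G2 remained the highest, at 306 ± 8.83 and 265 ± 11.4 FPKM. The lowest among the genes tested, above EIF4A1, were EIF4EBP3 at 1.44 ± 0.263 FPKM, EIF3CL at 2.40 ± 1.10, EIF2S3B at 3.46 ± 0.270 and EIF5AL1 at 3.83 ± 0.144 FPKM, each of which shares sequence or exons with another gene. The eIF2B genes lay between 5.61 and 18.5 FPKM, below the 22.5 to 126 FPKM of the 3 eIF2 genes.

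**Figure D4:**
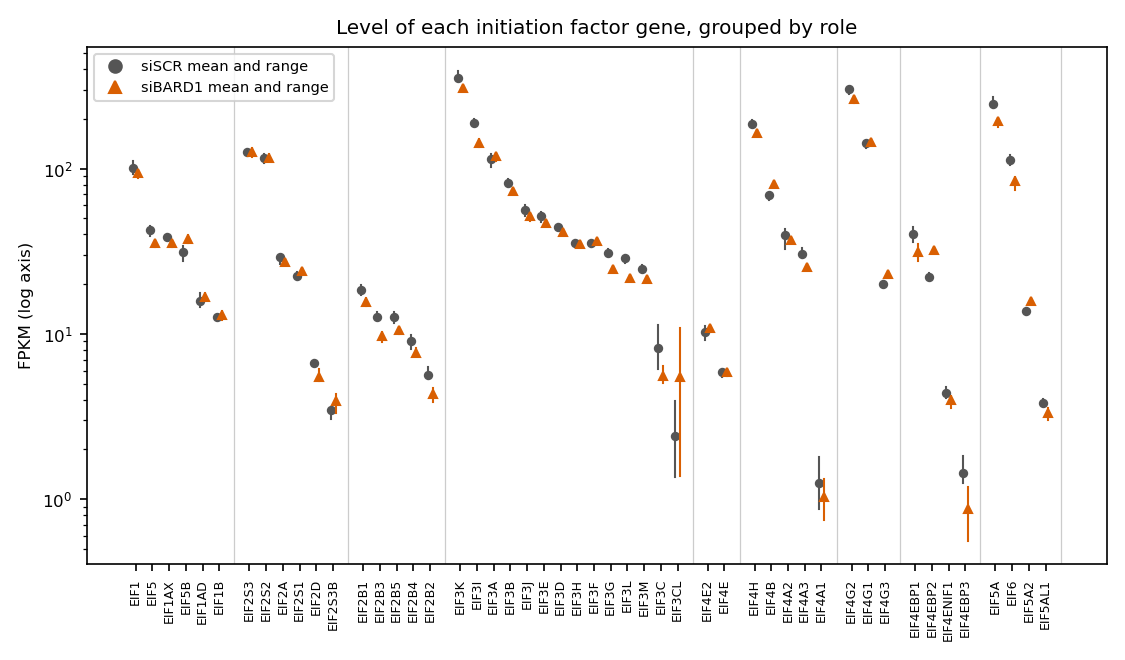
FPKM (y axis, log scale) of each initiation factor gene (x axis), in blocks by role in the same order as the plot of fold changes, with the mean and range of the 4 siSCR (circles) and 4 siBARD1 (triangles) libraries. The level of EIF3K, at 356 and 306 FPKM, is the highest, and the wide bar of EIF3CL reflects siBARD1 replicates 3 and 4.

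Transcript features that the rule did not use were set beside the calls. Taking for each gene the GENCODE 29 transcript whose 3′ UTR is longest, the 20 genes that fell had a median GC content of 51.6% and a median 3′ UTR of 634 bases. The 5 that rose had 43.7% and 1986 bases, and the 24 that did not pass had 44.2% and 908 bases. Over all 12722 protein-coding genes tested with such a transcript, the medians were 50.8% and 1217 bases for those lower, 45.8% and 1897 bases for those higher and 49.7% and 1242 bases for the rest. The same order of medians between lower and higher genes was therefore seen across the whole transcriptome. Some of the transcripts used were short, such as that of EIF3D at 452 bases, of which 150 are coding. The part of GC content and length in these calls was not tested.

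**Figure D5:**
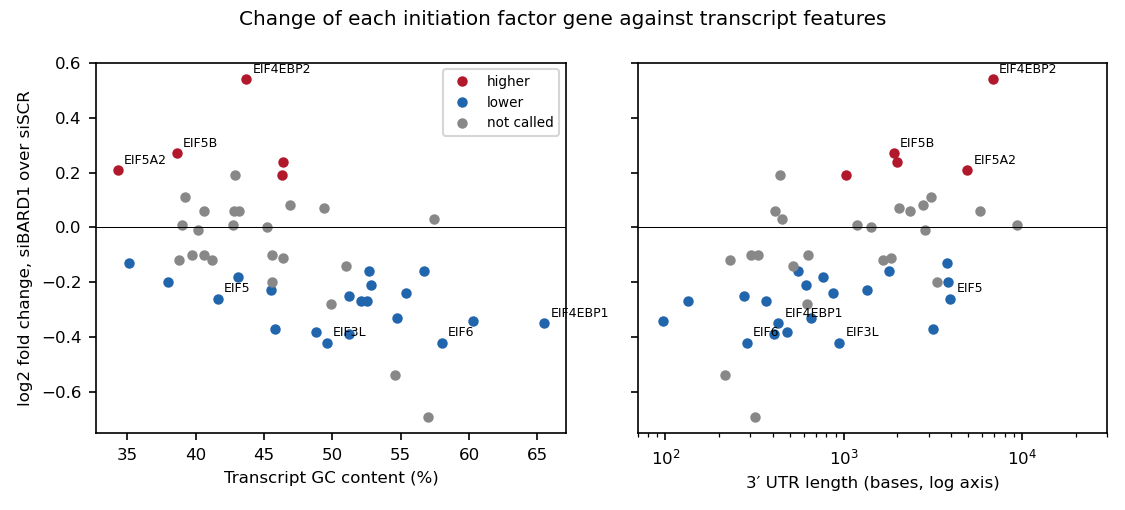
Log2 fold change of siBARD1 over siSCR (y axis) against transcript GC content (left) and 3′ UTR length (right, log axis) for 48 initiation factor genes, coloured by call, leaving out EIF3CL. The 5 genes that rose lie at or below 46.4% GC and have 3′ UTRs of 1027 bases or more.

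The 7-base sequence CTACCAG was chosen with results of these data known, and its shares are a description only. Of all protein-coding transcripts searched, 37.5% carried it among genes that fell, 20.9% among those that rose and 20.3% among the rest. The initiation factor genes are part of these sets. It occurred in 11 of the 49 initiation factor transcripts (22.4%), compared with 24.3% of all searched, and in the 3′ UTR of 4 (8.16%), compared with 8.1%. Among initiation factor genes it occurred in 6 of 20 that fell (30%), 1 of 5 that rose (20%) and 4 of 24 that did not pass (16.7%). A 3′ UTR copy was present in 1 of 20 (5%), 1 of 5 (20%) and 2 of 24 (8.33%). Over all protein-coding transcripts searched, 14.3% of genes that fell, 6.67% of those that rose and 6.18% of the rest had a 3′ UTR copy. Of the transcripts searched for the 5 eIF2B genes, only that of EIF2B5 carried CTACCAG in any part. The sites in genes that passed are shown with their flanks, from the GENCODE 29 transcripts (GRCh38), 5′ to 3′ on the transcript strand, and capitals mark the 7 bases.
EIF1AX, coding sequence: ggtctccgagaCTACCAGgataacaaagct
EIF2B5, coding sequence: ctgatggctttCTACCAGctggagatcctg
EIF3B, coding sequence: gatgcagctccCTACCAGgcaagagatccg
EIF3I, coding sequence: aagcagatgggCTACCAGtgctttgtgagc
EIF3L, coding sequence: gatgagttcatCTACCAGtttcagtcattc
EIF3L, coding sequence: ttaggagattaCTACCAGgccatcaaggtg
EIF4EBP2, 3′ UTR: ttcctttttctCTACCAGgccatttttcaa
EIF5, 3′ UTR: tacagcttgacCTACCAGtattccggagta
EIF3L carried it in 2 places, both in the coding sequence, and EIF5 was the only gene that fell with a copy in the 3′ UTR. EIF4EBP2 carried it in the 3′ UTR as well, and it rose. The transcript searched need not be the one expressed in these cells, and a match is not evidence of a functional site. Some searched transcripts were short, such as that of EIF2B4 with 687 coding bases and that of EIF3D with 150. Sites elsewhere in such genes were not searched. Whether the siRNA acted on transcripts other than BARD1 was not tested.

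The kinases and phosphatases that act on eIF2 were measured as a list of 8 genes, of which 2 fell, 1 rose and 5 did not pass. The share that passed was close to the 38.9% of all genes tested. PPP1R15B, which directs the phosphatase that removes the phosphate from eIF2, went from 29.6 ± 0.504 to 19.3 ± 1.09 FPKM (SD, n = 4 each), a log2 fold change of -0.61 (SE 0.05, edgeR adjusted p = 5.92e-08). The kinase genes diverged. EIF2AK2, the double-stranded RNA sensor PKR, fell by 0.23 on the log2 scale (edgeR adjusted p = 0.00178) and EIF2AK1, the haem-regulated kinase, rose by 0.23 (0.00572) with overlapping groups, 298 to 353 CPM in siSCR and 342 to 402 CPM in siBARD1. EIF2AK3, the endoplasmic reticulum stress sensor PERK, had 0.15 (95% interval -0.06 to 0.36), and EIF2AK4, the amino acid sensor GCN2, had 0.14 (0.01 to 0.28, edgeR adjusted p = 0.0797). Among the alternatives that moved it, the number that rose was 2 without siSCR replicate 1, siSCR replicate 4 or siBARD1 replicate 3. It was also 2 with a minimum of 1 CPM or protein-coding genes only. With upper-quartile or total-count scaling, or with the replicate number as a block, it was 3.

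Of 16 genes of mTORC1 and MNK regulation, which act on the 4E-BPs and on eIF4E, 4 fell, 5 rose and 7 did not pass, where 20.0% of all genes tested fell and 18.9% rose. SESN2 and DDIT4, stress-induced inhibitors of mTORC1, fell by 0.85 and 0.55 on the log2 scale (edgeR adjusted p = 1.03e-07 and 0.000311), although 41.2% of the exonic bases of DDIT4 lie opposite an antisense gene. TSC1, a constitutive inhibitor of the same complex, rose by 0.63 (edgeR adjusted p = 5.44e-07), and MKNK2, a kinase that phosphorylates eIF4E, rose by 0.79, from 33.8 ± 1.77 to 58.3 ± 2.43 FPKM (SD, n = 4 each; edgeR adjusted p = 3.56e-09). Of 16 poly(A)-binding and initiation cofactor genes 7 fell, 3 rose and 6 did not pass, against the same 20.0% and 18.9%. PABPC4, a poly(A)-binding protein, had a log2 fold change of -0.51 and CTIF, which bridges the nuclear cap-binding complex to eIF3, of -0.58. PDCD4, an inhibitor of eIF4A, had 0.50 with overlapping groups, and 28.1% of its exonic bases lie opposite another gene. PAIP2B, an inhibitor of poly(A)-binding protein, had 1.10 at a low level of 0.250 ± 0.0515 and 0.539 ± 0.112 FPKM.

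Of 13 elongation and termination factor genes tested, 5 fell, 2 rose and 6 did not pass, where 20.0% of all genes tested fell and 18.9% rose. EEF2K, the kinase that inhibits elongation factor eEF2, fell by 0.63 on the log2 scale (edgeR adjusted p = 1.12e-06), and EEF2 itself fell by 0.20 (edgeR adjusted p = 0.00229). The 2 that rose, GSPT2, a release factor (0.20), and EEFSEC, the selenocysteine elongation factor (0.23), had overlapping groups. None rose without siSCR replicate 5 or siBARD1 replicate 4, and 1 rose without siSCR replicate 3 or 4 or siBARD1 replicate 1 or 5.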

How the data were processed

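Polyadenylated RNA was sequenced from 8 libraries, 4 per group. The authors deposited read counts per gene and FPKM values per gene. The tools listed, per the submitters' processing notes, are fastp, HISAT2 (2.0.5) and featureCounts; the sources used here give no settings for them, strand included. The notes also name GRCh37 and hg19, but all 58735 genes have the starts and ends of GENCODE 29 on GRCh38, which is used here. Each deposited FPKM value equalled count over gene length and total, times a constant per library of 0.9696 to 1.0307.

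Deposited counts were tested with edgeR (4.0.16, R 4.3.3): filterByExpr, TMM scaling, a robust quasi-likelihood fit without covariates across 15287 genes, Benjamini-Hochberg adjustment and a threshold of 0.05. Standard errors were the log2 fold change over the square root of F. CPM uses TMM-scaled totals, except for the cell type markers, whose CPM uses unscaled totals. Alternatives used DESeq2 (1.42.0), limma (3.58.1), other scalings and filters, protein-coding genes only, limma on FPKM values with pseudocounts of 1 and 0.1 before taking log2, a fit with replicate number as block, and fits without each library in turn. In simulated data for siBARD1 against siSCR (15287 genes), 50 genes were altered at each of 1.25-, 1.5-, 2- and 4-fold. The share of altered genes called was 38% for a 1.25-fold difference, 78% for 1.5-fold and 88% for 2-fold, and 6 of 158 calls were false. In the real fit 5946 genes passed, far more than were altered here, so these shares do not carry over to it.

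The genes, role lists, the 4 lists of other translation genes and the motifs were chosen with earlier results of these data known. Named were every initiation factor gene that passed, the highest and lowest levels, from every other list the 2 genes with the biggest fall and the 2 with the biggest rise among those that passed, and the eIF2 kinases. Further initiation factor genes were named after their values were seen. No pair of libraries in a group was a duplicate: chi-square per gene, near 1 for sampling noise alone, was 4.26 to 17.66.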

Additional observations from a re-analysis of the deposited data

Results flagged for a closer look

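In 6 of the 98 groups of 4 libraries (49 initiation factor genes in 2 groups), 1 library lay far from the other 3, with a gap past the 95% critical value of Dixon's test. Chance gives about 1 in 20 such groups. Replicate 3 of siSCR was the high one for EIF2B2 (34.3 CPM), EIF3K (1103 CPM) and EIF4H (626 CPM). Replicate 5 of siSCR was the low one for EIF3L (117 CPM) and EIF2S3B (7.46 CPM). Replicate 1 of siBARD1 was the low one for EIF5 (289 CPM). For EIF2B2, EIF3K, EIF4H, EIF3L and EIF5 the groups did not overlap even with these libraries.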

How the results depend on the processing

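The number of initiation factor genes that fell was 20 in the main fit and 17 to 23 over all alternatives, and the number that rose was 5 or 6. The range over fits without 1 library was 19 to 23 for falls and 5 for rises. The median log2 fold change of the 49 genes was -0.13. It was -0.08 with scaling by total count, which moved the median of all genes to 0.052, and it ranged from -0.17 (without siSCR replicate 1) to -0.11 over fits without 1 library. Of the 25 genes that passed, 23 passed in every alternative at the 0.05 threshold and none changed direction. The exceptions were EIF1AX, lost in 8 alternatives, and EIF3B, lost with scaling by total count. At an adjusted p under 0.01, EIF1AX, EIF3B and EIF4G2 were lost. With the replicate number as a block, 22 fell and 6 rose. The counts that rose in the list of eIF2 kinases and phosphatases (1) and in the elongation list (2) ranged over 1 to 3 (3 with the replicate block) and 0 to 2. The replicate numbers were not taken as pairs, because the labels state no pairing. The correlation of same-numbered libraries' deviations from their group means was 0.139, 0.129, 0.034 and -0.032 for replicates 1, 3, 4 and 5. For differently numbered libraries it ran from -0.281 to 0.145. These values do not settle whether the libraries were paired. Counts of 89 to 195 reads limit EIF4A1, and 8 to 27 reads limit EIF4EBP3.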
